A study of Mus musculus with 8 samples.

Results

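Interferon-stimulated genes are the genes that cells switch on when interferon binds its receptors, and 33 of them, chosen by symbol, are described here out of 52661 genes in the transcript tables. All 33 symbols were found, each under 1 gene identifier, with 147 transcripts in all, and all 33 passed the filter on low counts. RNA sequencing had been done on intraepithelial lymphocytes, the immune cells lodged within the epithelium of the gut, from C57BL/6 mice. Every library came from cells sorted on the leukocyte protein CD45 and kept for 24 h at 37 °C in RPMI medium containing 10% serum. In the osteopontin group (4 libraries) recombinant osteopontin, a secreted ligand of CD44 and of several integrins, was present at 2 µg/ml, and in the null group (4 libraries) it was absent. Libraries of both groups are named 1, 2, A and B. The labels give neither the age nor the sex of the mice, nor say if each library had its own animal or culture, so each p-value reflects only how far these libraries scatter, and some of that scatter may be technical. The question was how expression in these cells differed with osteopontin.

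Type I interferons (alpha and beta) act through the receptor chains Ifnar1 and Ifnar2 and the kinases Jak1 and Tyk2, and the signal reaches a transcription factor complex that holds STAT2 and IRF9 and binds the interferon-stimulated response element (ISRE) in promoters. Type II interferon (gamma) acts through Ifngr1, Ifngr2, Jak1 and Jak2, and many of the genes it induces carry the gamma-activated sequence (GAS). The induced proteins detect foreign nucleic acid, degrade or mask viral RNA, stop viral entry or assembly, and attack vacuoles that hold bacteria or parasites. In the gut, intraepithelial lymphocytes are a known source of interferon-gamma and respond to interferons during enteric infection.

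Library totals ranged from 49108969 to 71399847 estimated reads, and levels within a gene are given in CPM (counts scaled to a fixed library size, with TMM factors applied). The counting floor of 3 reads lay between 0.0420 and 0.0611 CPM, for counting error only. The 7 markers of T and intraepithelial lymphocytes summed to 5791 to 6202 CPM with osteopontin and 5507 to 5946 CPM without. The sort kept other leukocytes, and the 6 markers of B and plasma cells summed to 622.2 to 1468 CPM with osteopontin and 1024 to 1634 CPM without. Osteopontin library B stood apart from the other osteopontin libraries. Its 5 inducible stress markers (Fos, Fosb, Hspa1a, Hspa1b and Atf3) summed to 105.4 CPM, against 3.55 to 6.73 CPM in osteopontin libraries 1, 2 and A and 95.7 to 118.7 CPM in the null libraries. The 6 fibroblast markers summed to 289 CPM in null library 1 and 150.8 CPM in null library A, and to 6.30 to 24.3 CPM in the other 6 libraries. In bulk samples such as these, fewer cells of a type and less RNA per cell cannot be told apart.

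The RefSeq promoter table (GRCm38.p6, windows from 250 bases before to 50 bases after each start) held 32 windows for 26 of the 33 genes. No window was found for Mx1, Mx2, Oas2, Parp14, Rtp4, Usp18 and Zbp1. The ISRE core, searched on both strands as GAAA, any 2 bases and GAAA again, was present in 17 of the 32 windows (53.1%, 16 genes), against 3.44% of all 32851 promoter windows of the same length. The GAS core, searched as TTC, any 3 bases and GAA, which reads the same on both strands, was present in 8 of the 32 windows (25%, 8 genes), against 8.3% of all windows. A match is a description of the letters and not evidence of binding. The stretches below show the matches in capitals, 5′ to 3′ along each gene's own strand. Isg15 (77 bases, chr4:156200850-156200926 on the minus strand) is shown because 3 overlapping ISRE cores run through it.
Isg15: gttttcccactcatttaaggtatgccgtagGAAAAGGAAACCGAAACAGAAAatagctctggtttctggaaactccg
The next stretches are shown because neighbouring genes of a family carry promoters that are near-identical around their first ISRE core. Those of Ifit3 (chr19:34583343-34583441 on the plus strand) and Ifit3b (chr19:34607739-34607837 on the plus strand) have the ISRE on the opposite strand, so its reverse complement is in capitals.
Ifit3: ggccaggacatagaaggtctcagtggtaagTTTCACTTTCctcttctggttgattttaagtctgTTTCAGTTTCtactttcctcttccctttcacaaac
Ifit3b: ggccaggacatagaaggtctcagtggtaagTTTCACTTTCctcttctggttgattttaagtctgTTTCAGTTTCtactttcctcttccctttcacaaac
For Oas1a (chr5:120907526-120907653 on the minus strand) the capitals mark a GAS core and then 2 overlapping ISRE cores, and for Oas1g (chr5:120887614-120887661 on the minus strand) only the ISRE cores.
Oas1a: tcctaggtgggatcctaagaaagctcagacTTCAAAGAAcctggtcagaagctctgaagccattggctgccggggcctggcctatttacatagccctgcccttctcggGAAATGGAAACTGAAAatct
Oas1g: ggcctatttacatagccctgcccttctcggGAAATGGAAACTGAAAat
For Igtp (chr11:58199481-58199555 on the plus strand) and Irgm2 (chr11:58214872-58214947 on the plus strand) a GAS core stands just before an ISRE core.
Igtp: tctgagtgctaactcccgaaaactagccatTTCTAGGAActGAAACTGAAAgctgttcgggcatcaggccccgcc
Irgm2: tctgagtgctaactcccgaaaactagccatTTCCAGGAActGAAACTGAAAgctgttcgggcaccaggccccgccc
Irgm1 (chr11:48871421-48871480 on the minus strand) of the same GTPase family had 2 overlapping ISRE cores and no GAS core. Irf1 (chr11:53769894-53769957 on the plus strand) had a GAS core and no ISRE core. In Bst2 (chr8:71537562-71537638 on the minus strand) a GAS core overlaps the first of 2 ISRE cores, the 1 member window with such an overlap.
Irgm1: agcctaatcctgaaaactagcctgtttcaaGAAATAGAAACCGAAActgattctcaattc
Irf1: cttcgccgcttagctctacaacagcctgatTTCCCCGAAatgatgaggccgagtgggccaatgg
Bst2: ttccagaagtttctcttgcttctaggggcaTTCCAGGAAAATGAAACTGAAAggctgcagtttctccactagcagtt

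Aligned on the first ISRE core, the windows of Ifit3 and Ifit3b were identical over all 110 bases compared, those of Oas1a and Oas1g over 67 of 68 bases (98.5%), and those of Igtp and Irgm2 over 81 of 84 bases (96.4%). In 6 genes with a window neither motif was present in these letters: Ifi47, Irf7, Irf9, Oasl1, Oasl2 and Xaf1. The map of motif positions shows the matches before the start site.

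**Figure D1:**
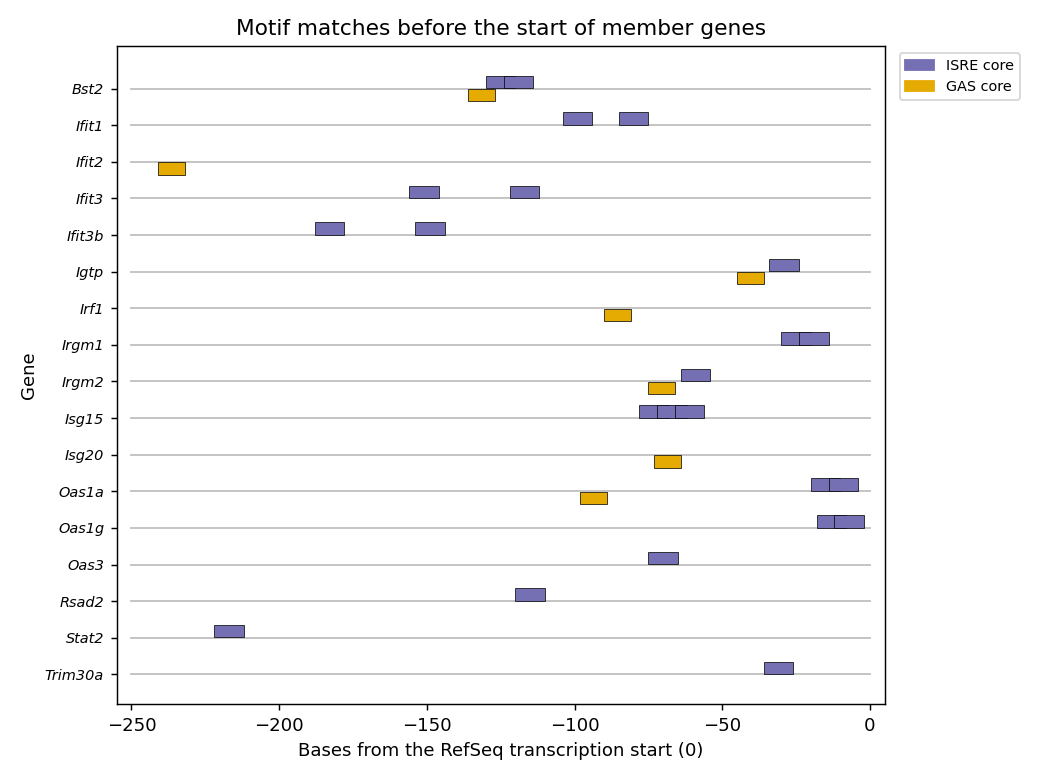
Position of each ISRE core (purple) and GAS core (yellow) relative to the RefSeq transcription start, in bases, for the 17 windows with a match before the start; each grey line is 1 window. In Isg15, Irgm1, Oas1a, Oas1g and Bst2 ISRE cores overlap each other, and in Igtp and Irgm2 a GAS core stands next to an ISRE core.

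The genes were expressed at very different levels in both groups. Levels between genes are compared in TPM (abundance corrected for transcript length and scaled to a fixed sum). Averaged over the 8 libraries, 11 members stood at 50 TPM or more, 10 between 10 and 50 TPM and 12 under 10 TPM, of which 8 were under 5 TPM. The highest was Irf1, a transcription factor induced by both kinds of interferon, at 221.5 ± 10.3 TPM with osteopontin and 234.1 ± 6.28 TPM without (SD, n = 4 each, as for all levels given this way). Ifi47, an immunity-related GTPase, followed at 196.4 ± 20.2 and 182.9 ± 12.6 TPM. These 2 genes lay above all other members in every library. Bst2, or tetherin, which holds budding virus at the cell surface, stood at 91.9 ± 31.2 and 103.3 ± 36.2 TPM, and Stat2 at 89.1 ± 17.0 and 78.7 ± 8.67 TPM, and neither order was resolved beyond the spread. Irgm1, Igtp, Ddx58, Irf7, Irf9, Trim30a and Ifi35 filled the range from 47.1 to 76.3 TPM in their group means, where neighbours overlapped. Among the other members, Isg15 stood at 11.2 ± 3.74 and 13.9 ± 2.49 TPM, Ifit1 at 2.56 ± 0.734 and 2.02 ± 0.989 TPM, and Rsad2 at 4.80 ± 3.26 and 2.81 ± 2.00 TPM. The lowest was Oas2, at 1.11 ± 0.593 and 0.742 ± 0.522 TPM. The plot of levels by library shows the order and the spread of every member.

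**Figure D2:**
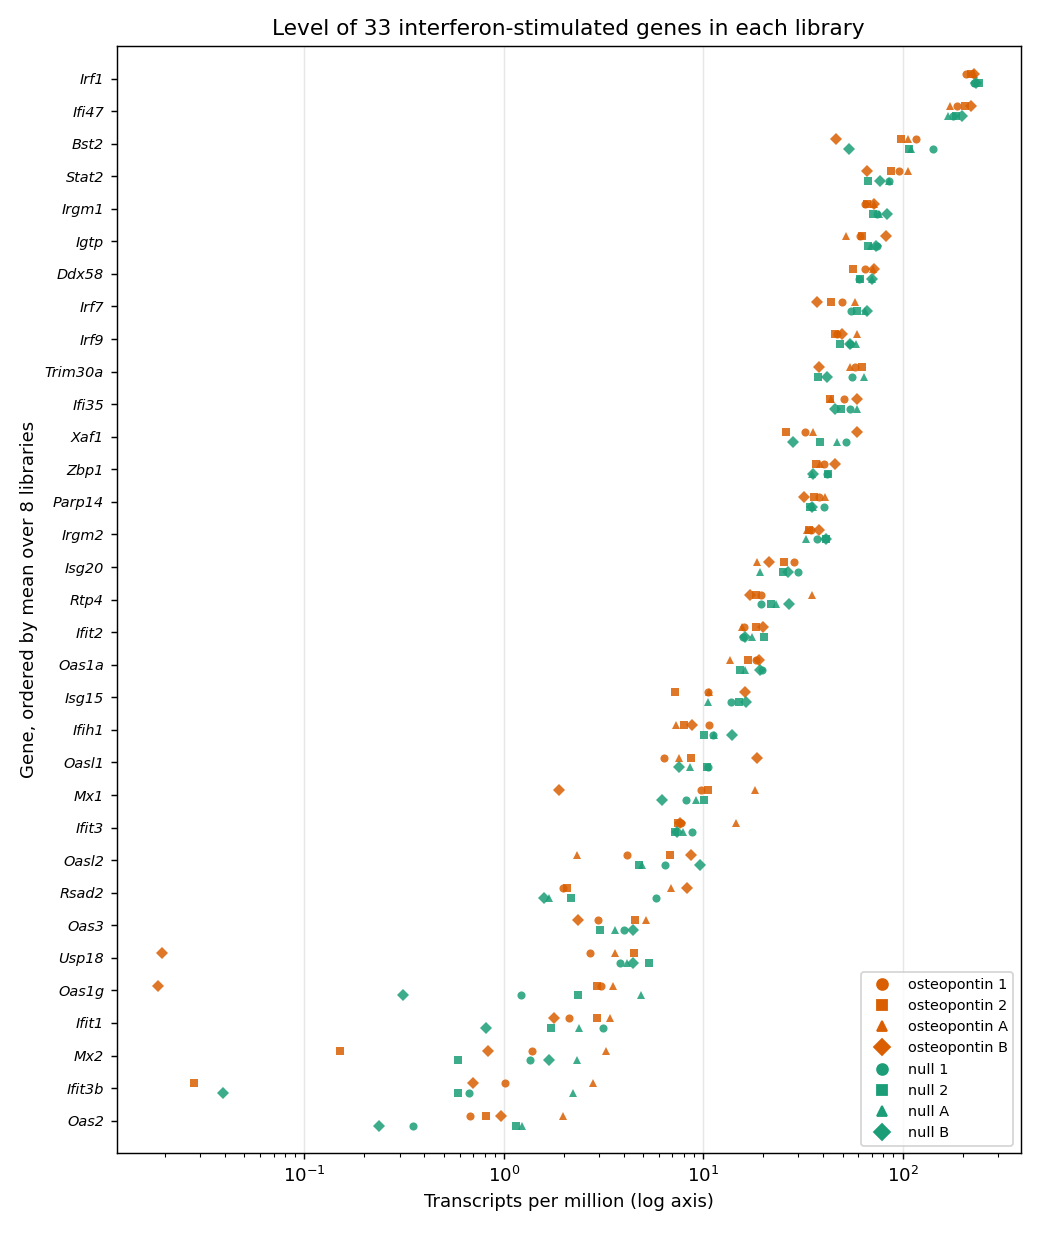
Level of each of the 33 genes in TPM (log axis) in each of the 4 osteopontin (orange) and 4 null (green) libraries, 1 point per library with a shape per library name. Irf1 and Ifi47 are at the top with tight points. Far below the rest of their gene lie Usp18 in osteopontin library B, Oas1g in both B libraries, and Ifit3b in osteopontin library 2 and null library B.

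None of the interferon-stimulated genes differed between the groups by the test. By the quasi-likelihood test of edgeR over all genes, 0 of 33 members were higher and 0 lower at an adjusted p under 0.05, with a lowest member adjusted p = 0.9999, and 0% of all 18631 tested genes were called in either direction. At an unadjusted p under 0.05, 0 members were higher and 3 lower (Irf1, Irgm1 and Irf7), against 3.93% of all tested genes in either direction, 1.85% higher and 2.08% lower. DESeq2 and limma voom also called 0 members. DESeq2 called 0.103% of 20434 genes higher and 0.289% lower, and its lowest member adjusted p = 0.179 was for Irf1. The groups did not overlap for 1 member, Irf1, which lay lower with osteopontin, against 3.47% of all tested genes in either direction and 1.58% in that one. Fitted levels were higher with osteopontin for 13 members and lower for 20, against 50.1% and 49.9% of all genes. The median log2 fold change (osteopontin over null, as throughout) was -0.05 over the members and 0.00 over all tested genes. Member values ranged from -0.81 (Usp18, with 1 read in osteopontin library B) to 0.42 (Oas2). The fitted difference of Usp18 took the opposite sign with digit-named libraries only, and that of Oas2 with digit-named libraries or coding transcripts only. The 95% interval lay within a 2-fold change in either direction for 23 of the 33 and within a 1.5-fold change for 19. The counts of the 33 genes summed to 1665, 1650, 1735 and 1613 CPM in osteopontin libraries 1, 2, A and B, and to 1723 to 1752 CPM in the null libraries, a sum carried mainly by the genes with the most reads. The plot of fitted differences by role shows that the intervals of the low genes are wide.

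**Figure D3:**
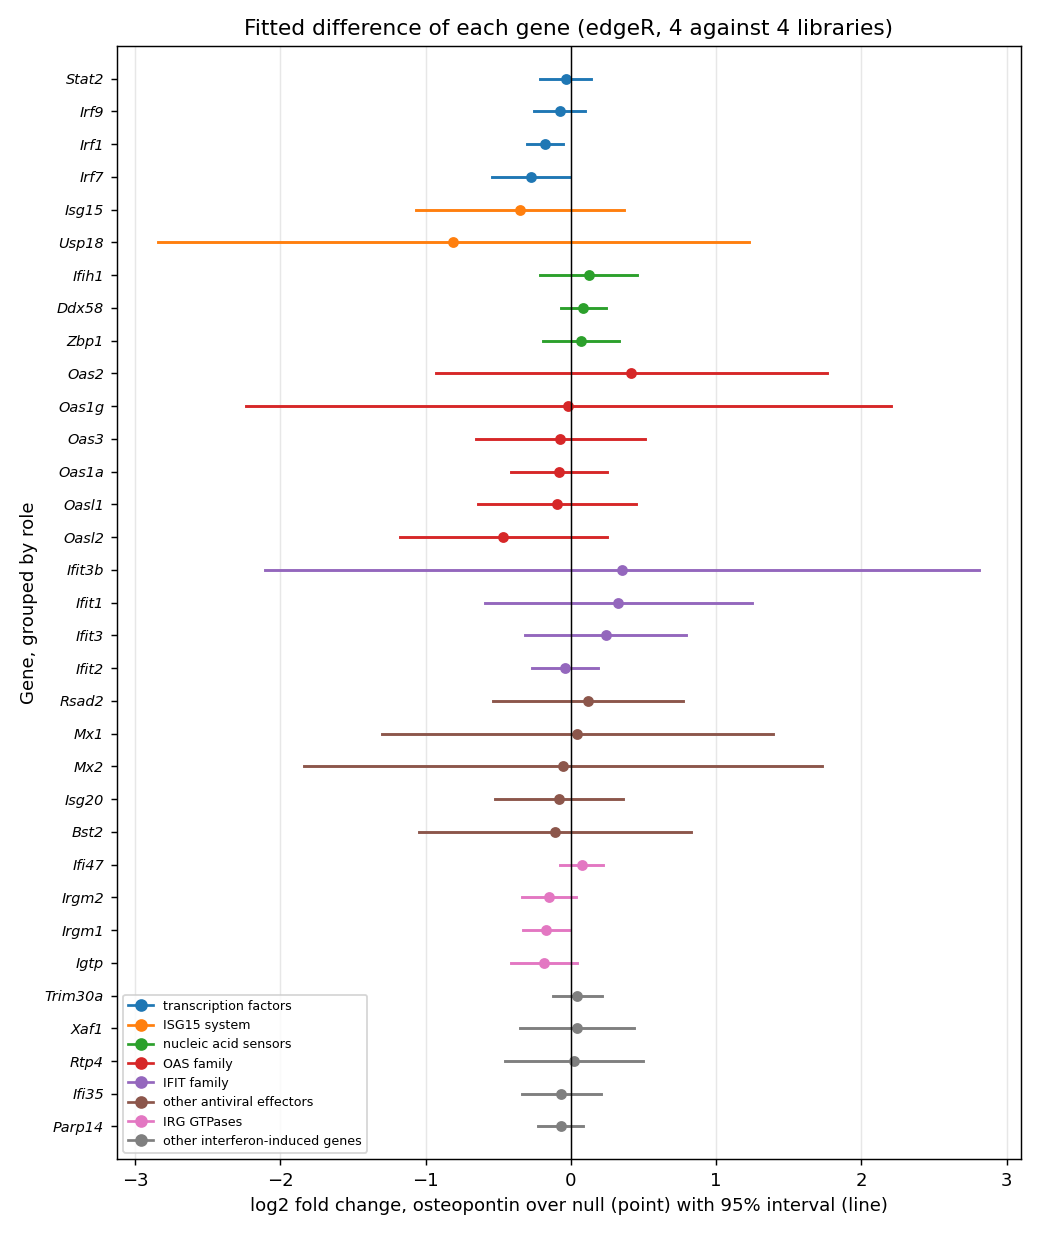
Fitted log2 fold change of each gene, osteopontin over null (points), with its 95% interval (lines), coloured by role. The intervals of 30 genes include 0; those of Irf1, Irgm1 and Irf7 lie below 0 before adjustment for the number of genes tested.

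The 4 transcription factors all had lower fitted levels with osteopontin, with a median log2 fold change of -0.13, and 0 passed the test. Irf1 (chromosome 11, 53770014 to 53778374 on GRCm38, as all spans here) stood at 244.5, 252.6, 254.0 and 244.5 CPM with osteopontin and 273.2, 287.6, 268.1 and 296.4 CPM without, in libraries 1, 2, A and B in turn, the order used for all genes. Every osteopontin library lay below every null library. Its log2 fold change was -0.18 (SE 0.06, 95% interval -0.30 to -0.05, edgeR adjusted p = 0.9999, unadjusted p = 0.00838). With effective transcript lengths as an offset it was -0.12, at an unadjusted p = 0.132.

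Irf7 (chromosome 7, 141262706 to 141266481), the factor that amplifies type I interferon production, stood at 55.3, 53.1, 69.9 and 43.4 CPM with osteopontin and 59.1, 66.5, 72.5 and 70.5 CPM without. Each osteopontin library lay below the null library of its name, and library A lay within the null range. Irf1, Irgm1 and Ifit2 were also lower in every such pair. The share of all genes with the same order in every pair was not counted, so this order is description only. The log2 fold change was -0.28 (SE 0.13, 95% interval -0.54 to -0.01, edgeR adjusted p = 0.9999, unadjusted p = 0.0424), -0.29 with the libraries paired by name (edgeR unadjusted p = 0.0219), and -0.18 without osteopontin library B (unadjusted p = 0.132). With effective lengths as an offset it was -0.42. Stat2 (chromosome 10, 128270559 to 128292849) stood at 135.3, 118.5, 129.5 and 104.4 CPM with osteopontin and 130.2, 115.5, 129.0 and 124.7 CPM without. Osteopontin library 1 lay above the null range and library B below it, and the fitted log2 fold change of -0.03 (95% interval -0.21 to 0.14) turned to 0.03 without that library. Irf9, the DNA-binding partner of STAT2, stood at 78.5 ± 4.52 and 82.9 ± 5.78 CPM.

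Both genes of the ISG15 system were low and imprecise. Isg15, a ubiquitin-like protein that is attached to other proteins, stood at 4.27 ± 1.35 CPM with osteopontin and 5.43 ± 0.978 CPM without, and the groups overlapped. Usp18, the protease that removes ISG15 and also blocks signalling at the Ifnar2 chain, stood at 2.70, 3.92, 2.35 and 0.0203 CPM with osteopontin and at 2.22 to 4.92 CPM without. Osteopontin library B held 1 read of Usp18, at or under the floor of 3 reads, against 128 to 332 reads in the other 7 libraries. The 3 cytosolic sensors, which recognise foreign nucleic acid, had slightly higher fitted levels, with a median log2 fold change of 0.09. Ddx58, which encodes RIG-I (chromosome 4, 40203773 to 40239828), stood at 124.5, 122.0, 135.8 and 138.9 CPM with osteopontin and 115.3, 117.0, 125.9 and 132.8 CPM without. Each osteopontin library exceeded the null library of the same name, as for Ifi47, but the groups overlapped. How common this order is over all genes was not counted. The log2 fold change was 0.09 (95% interval -0.07 to 0.24), and -0.02 with effective lengths as an offset. Ifih1, which encodes MDA5, stood at 23.2 ± 2.00 and 21.4 ± 3.64 CPM but at 8.71 ± 1.45 and 11.6 ± 1.62 TPM, so the sign of its difference depended on the length correction. Zbp1 stood at 45.3 ± 7.69 and 43.2 ± 2.18 CPM.

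In the oligoadenylate synthetase family, the active enzymes make a product that activates the RNA-degrading enzyme RNase L. The family was fitted higher in 1 and lower in 5 of 6 genes, with a median log2 fold change of -0.08. Oasl2 (chromosome 5, 114896936 to 114912234) stood at 3.86, 3.94, 4.37 and 3.76 CPM with osteopontin and 6.93, 3.38, 4.72 and 6.99 CPM without. Null libraries 1 and B were high, while null library 2 lay below all osteopontin libraries, and the log2 fold change was -0.47 (SE 0.34, 95% interval -1.18 to 0.25). Counting only its protein-coding transcripts turned this to 0.06. Its neighbour Oasl1 (chromosome 5, 114923240 to 114937915), known to hold back Irf7 translation, stood at 8.20, 7.43, 8.85 and 13.5 CPM with osteopontin and 11.7, 10.9, 11.04 and 6.91 CPM without. In both groups library B broke from the other 3 libraries, upwards with osteopontin and downwards without it. Its log2 fold change of -0.09 had an interval of -0.64 to 0.45.

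Oas3 (chromosome 5, 120753098 to 120777661) stood at 8.82, 9.30, 16.5 and 6.10 CPM with osteopontin and 10.8, 9.35, 10.1 and 12.6 CPM without. The osteopontin libraries held both the highest and the lowest value, with a log2 fold change of -0.07 (95% interval -0.66 to 0.51) that turned to 0.11 without osteopontin library B. Oas1a was the steadiest of the family, at 19.9 ± 2.57 and 21.03 ± 2.39 CPM. Oas1g stood at 1.08 ± 0.715 and 1.09 ± 0.920 CPM, with 1 read in osteopontin library B and 8 reads in null library B. Oas1a and Oas1g cannot be counted fully apart, since 68.7% of the 31-base words of Oas1a transcripts also occur in Oas1g. Oas2 stood at 2.03 ± 0.944 and 1.52 ± 1.06 CPM.

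The IFIT genes encode proteins that bind viral RNA or block translation, and 3 of the 4 had higher fitted levels, with a median log2 fold change of 0.28. Without osteopontin library A, or with digit-named libraries only, both Ifit3 and Ifit3b were fitted lower. Ifit3 (chromosome 19, 34583531 to 34588731) stood at 8.33, 8.11, 15.96 and 7.90 CPM with osteopontin and 9.46, 8.01, 8.67 and 8.03 CPM without. The other 7 libraries were close together, and osteopontin library A stood alone. The log2 fold change of 0.24 (SE 0.26, 95% interval -0.32 to 0.79) turned to -0.08 without that library. Its near copy Ifit3b (chromosome 19, 34607970 to 34613401) was likewise highest in osteopontin library A, at 3.57 CPM, and stood at 2.83 CPM in null library A. It held 2 reads in osteopontin library 2 and 3 reads in null library B. The pair shares 61.8% of the 31-base words of Ifit3, so how their reads were divided is uncertain. Ifit2, the most abundant of the family per length, stood at 38.8 ± 2.41 and 39.9 ± 2.83 CPM, with an interval within a 1.5-fold change in either direction. Ifit1 stood at 4.39 ± 1.32 and 3.497 ± 1.68 CPM.

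Among the other antiviral effectors, Mx1 and Bst2 differed far more between libraries of 1 group than between groups. Mx1 (chromosome 16, 97447035 to 97462907) encodes a GTPase against influenza-like viruses, and C57BL/6 mice, as most inbred strains, carry a defective allele. It stood at 15.4, 11.5, 25.4 and 3.54 CPM with osteopontin and 15.6, 13.4, 18.2 and 7.07 CPM without. Library A was highest and library B lowest in each group. The log2 fold change of 0.05 (SE 0.57, 95% interval -1.30 to 1.39) changed sign in 6 of 20 alternative analyses. Bst2 (chromosome 8, 71534255 to 71537456) stood at 45.6, 40.9, 44.2 and 18.6 CPM with osteopontin and 56.6, 41.1, 43.3 and 20.3 CPM without, again lowest in both B libraries. Its log2 fold change was -0.11 (SE 0.39, 95% interval -1.05 to 0.82), and 0.11 without osteopontin library B. Isg20, an RNA exonuclease, stood at 12.8 ± 2.91 and 13.5 ± 1.95 CPM. Rsad2, or viperin, stood at 5.48 ± 1.08 and 5.06 ± 1.05 CPM, and Mx2 at 1.25 ± 0.763 and 1.30 ± 0.981 CPM.

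Siglech, a surface lectin of plasmacytoid dendritic cells, the chief producers of type I interferon, was lowest in the same B libraries. It stood at 109.1, 92.0, 87.6 and 3.90 CPM with osteopontin and 136.0, 93.6, 104.2 and 34.1 CPM without. The 4 markers of these cells (Siglech, Klk1, Cox6a2 and Pacsin1) summed to 14.1 to 151.3 CPM with osteopontin and 71.04 to 176.4 CPM without, and none was at or under 3 reads in all libraries. Of these markers, 3 were fitted lower with osteopontin and 1 higher. In null library B the dip lay in Siglech. The other plasmacytoid markers together stood there near their level in the other null libraries. Low values in the B libraries were not particular to plasmacytoid markers. The 8 macrophage and dendritic cell markers summed to 86.6 and 88.4 CPM in the B libraries and to 114.3 to 165.7 CPM in the other 6. The B and plasma cell sum was also lowest in library B of each group, at 622.2 CPM with osteopontin and 1024 CPM without. The plasmacytoid sum and the macrophage and dendritic cell sum were both lower with osteopontin in each pair of same-named libraries. The B and plasma cell sum was not, at 1323 CPM in osteopontin library 2 and 1302 CPM in null library 2. Irf7, Irf1, Irgm1 and Ifit2 were also lower in each such pair, while Bst2 and Mx1 were not. The part of these cells in the levels of Bst2, Irf7 and Mx1 was not tested. The plot of Bst2, Irf7, Mx1 and Siglech by library shows the values.

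**Figure D4:**
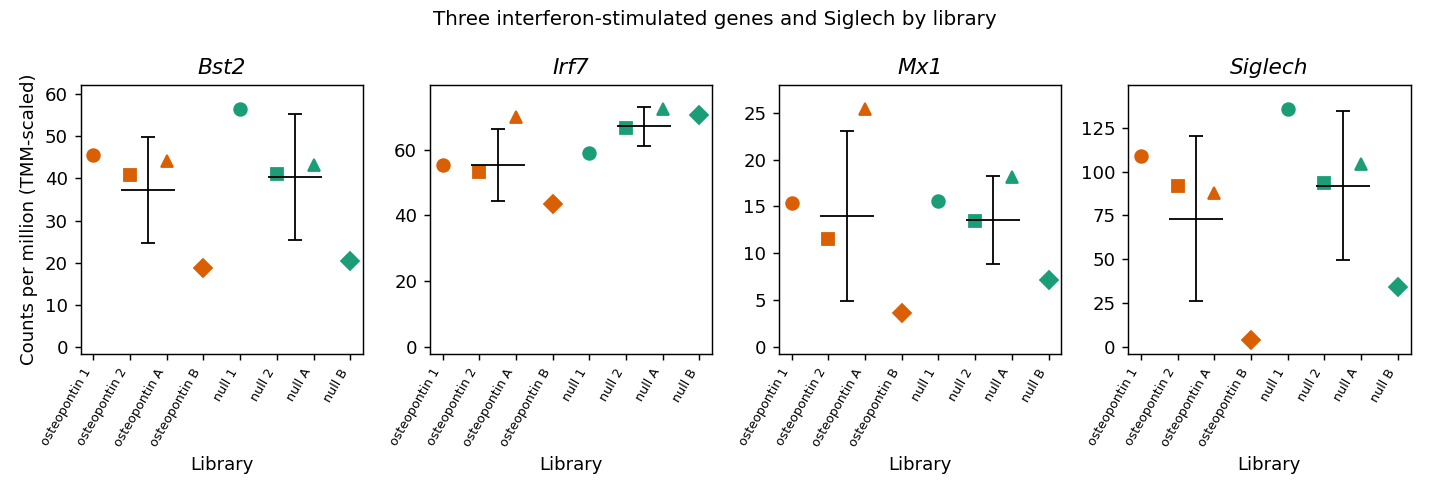
CPM of Bst2, Irf7, Mx1 and the plasmacytoid dendritic cell marker Siglech in each osteopontin (orange) and null (green) library; the horizontal line and bar are the group mean and SD of 4 libraries. Both B libraries are lowest for Bst2, Mx1 and Siglech, while Irf7 in null library B (70.5 CPM) is near the top of its group.

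The immunity-related GTPases are a family that acts against vacuoles around intracellular bacteria and parasites, through effector and regulatory members. The 4 genes here were abundant and precisely measured, and 3 of the 4 had lower fitted levels (median log2 fold change -0.16). All 4 intervals lay within a 1.5-fold change in either direction. Irgm1 (chromosome 11, 48861968 to 48871683), a regulator of the family, stood at 90.3, 91.8, 101.6 and 96.5 CPM with osteopontin and 103.8, 100.4, 108.6 and 115.7 CPM without. Each osteopontin library lay below the null library of its name, and library A was the only one to reach into the null range. The log2 fold change was -0.17 (SE 0.07, 95% interval -0.33 to -0.02, edgeR adjusted p = 0.9999, unadjusted p = 0.0337). The edgeR unadjusted p was 0.0224 with the libraries paired by name, 0.0634 with effective lengths as an offset and 0.06555 with coding transcripts only. When 1 library was left out it ran from 0.0187 to 0.0918. Igtp (chromosome 11, 58199556 to 58207591) stood at 76.1, 78.2, 63.7 and 96.6 CPM with osteopontin and 92.5, 84.7, 87.6 and 93.3 CPM without. Osteopontin library B was the highest of all 8 and the other 3 osteopontin libraries lay below every null library. The log2 fold change of -0.19 (95% interval -0.41 to 0.04) became -0.30 without osteopontin library B (edgeR adjusted p = 0.578) and -0.10 without osteopontin library A (edgeR adjusted p = 0.9996).

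Irgm2 (chromosome 11, 58199618 to 58222782) stood at 79.7, 78.2, 76.4 and 83.9 CPM with osteopontin and 84.6, 96.5, 76.1 and 95.9 CPM without. Null library A was as low as the osteopontin libraries, and the log2 fold change was -0.15 (95% interval -0.34 to 0.04). The annotated spans of Igtp and Irgm2 overlap and 15.9% of the 31-base words of Igtp occur in Irgm2, so reads there could be assigned to either. Ifi47 (chromosome 11, 49076587 to 49096974) went the other way, at 171.4, 190.5, 168.8 and 186.7 CPM with osteopontin and 165.0, 180.9, 158.6 and 177.1 CPM without. Each osteopontin library lay slightly above the null library of its name, but the groups overlapped, and the log2 fold change was 0.07 (95% interval -0.07 to 0.22).

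The remaining 5 genes had a median log2 fold change of 0.02, 3 of them fitted higher and 2 lower, and all 5 intervals lay within a 1.5-fold change in either direction. Rtp4 (chromosome 16, 23520291 to 23614222), a chaperone that restrains some viruses, stood at 13.8, 12.7, 23.6 and 11.6 CPM with osteopontin and 12.4, 15.6, 15.3 and 17.5 CPM without. Osteopontin library A was again alone at the top, and the log2 fold change of 0.02 (95% interval -0.46 to 0.50) turned to -0.26 without it. Parp14, an ADP-ribosyltransferase, stood at 174.2 ± 15.5 and 183.0 ± 8.44 CPM. Trim30a, a damper of inflammatory signalling, stood at 102.8 ± 9.07 and 99.7 ± 5.95 CPM. Ifi35 stood at 36.3 ± 4.87 and 38.0 ± 4.34 CPM. Xaf1, which antagonises an inhibitor of apoptosis, stood at 22.2 ± 4.63 and 21.6 ± 4.37 CPM.

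Several members had their highest or lowest value in the same library. Of the 33 members, osteopontin library A held the highest value of the 8 libraries for 8 (Ifit1, Ifit3, Ifit3b, Mx1, Oas2, Oas3, Rtp4 and Zbp1) and the lowest for 4. Over all tested genes it held the highest for 13.7% and the lowest for 17.4%. Osteopontin library B held the lowest for 12 members (Bst2, Ifit3, Irf7, Mx1, Oas1g, Oas3, Parp14, Rtp4, Stat2, Trim30a, Usp18 and Zbp1) and the highest for 5. Over all genes it held the lowest for 22.0% and the highest for 20.8%. Null library A held the highest for 7 members (Ifi35, Ifit2, Irf7, Irf9, Mx2, Oas1g and Xaf1) and the lowest for 2, against 9.51% and 7.5% of all genes. The members' spread within groups can be set beside that of all genes. Their median within-group SD of log2 CPM was 0.28, against 0.36 over all tested genes, and for genes at 5 CPM or more it was 0.18 over 25 members and 0.17 over 10616 genes. Without osteopontin library B the median log2 fold change of the members was -0.02, with 15 fitted higher and 18 lower. Without osteopontin library A it was -0.10, with 9 higher and 24 lower. The heat map of deviations shows each library against the gene's mean.

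**Figure D5:**
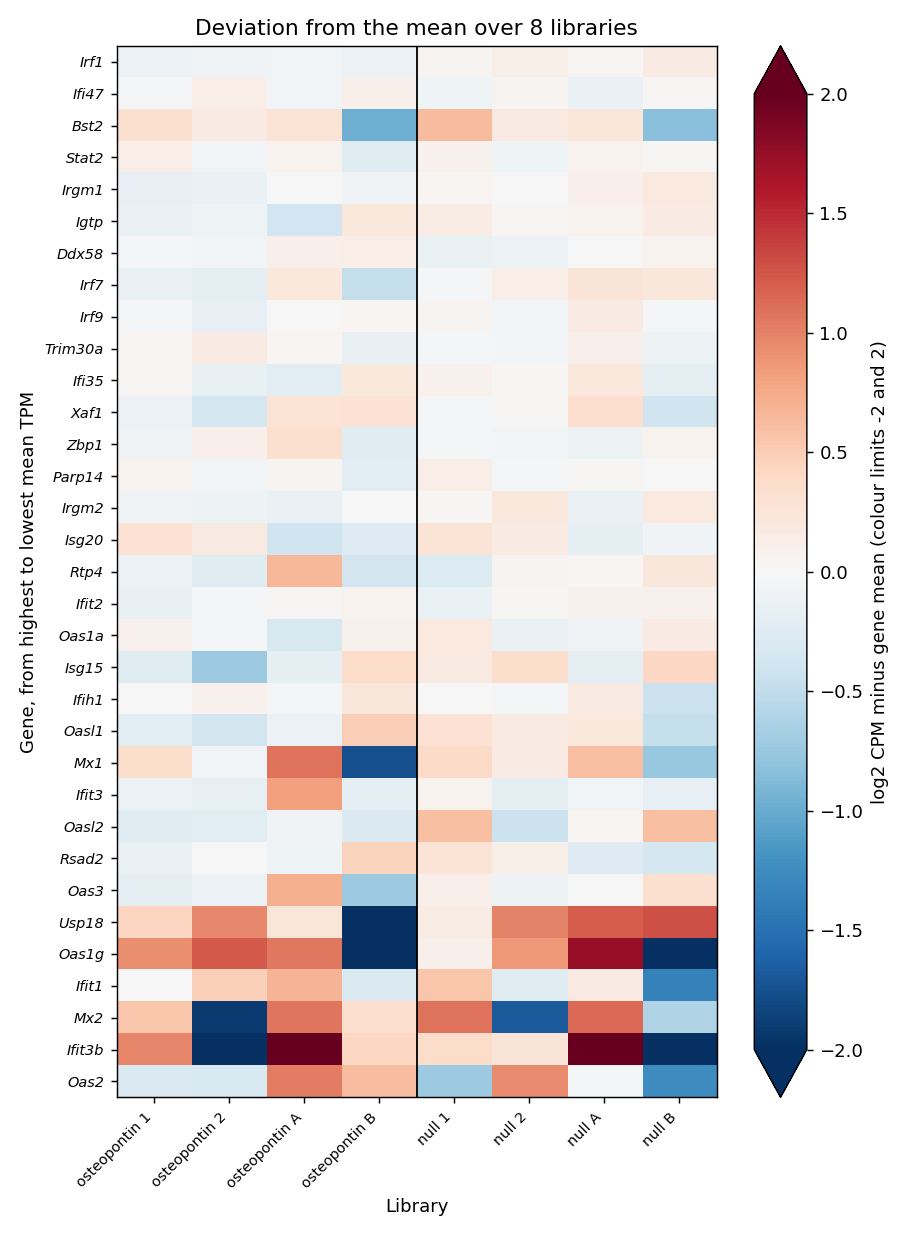
Deviation of each gene's log2 CPM (prior count of 2) in each library from its mean over the 8 libraries, with osteopontin libraries left of the line, null libraries right of it, and genes ordered by mean TPM; red is above and blue below the mean, and colours stop at -2 and 2. The strongest colours are in genes of low level such as Usp18 in osteopontin library B and Ifit3b, Oas1g and Mx2 in libraries of both groups, and both B libraries are blue for Bst2 and Mx1.

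Part of the reads of several members was assigned to transcripts not annotated as protein-coding. Pooled over the libraries, 48.96% of Irf7 reads fell on its protein-coding transcripts, and the transcript with the most reads was a retained-intron form of 1922 bases (33.2%). The coding share of Irf7 per library ranged from 39.6% to 57.3%. For Zbp1 the coding share was 56.0%, with 44.0% on a retained-intron transcript of 3325 bases, and for Xaf1 52.0%, with 38.2% on one of 2582 bases. For Ddx58 it was 69.5%. Mx1 reads were 32.9% coding, and the largest share, 39.5%, was on a transcript annotated for nonsense-mediated decay. The Mx1 coding share per library ran from 0% in osteopontin library B to 67.6% in osteopontin library 2. Mx2, annotated in part as a polymorphic pseudogene, had 26.3% on its coding transcript, from 0% to 90.3% per library on 16 to 156 reads (mean 61.8% ± 42.6 with osteopontin and 18.0% ± 24.9 without, SD, n = 4 each), and Oas1g had 2.28%. Per library the coding share of Zbp1 ran from 50.6% to 69.4%, that of Xaf1 from 33.6% to 61.6% and that of Ddx58 from 63.7% to 76.2%. For Ifi47, Igtp, Irgm2, Isg15, Oas1a, Rtp4 and all 4 IFIT genes only protein-coding transcripts are annotated. Their coding share of 100% was therefore fixed in advance and is not a result. The coding share counts every transcript annotated as protein-coding, including short ones such as a form of Ifi47 of 703 bases. It is therefore not a share of full-length transcripts. These shares rest on Salmon's division of reads among overlapping transcripts.

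The rest of the pathway was given by 5 lists of 97 symbols in all, of which 95 were found and 76 tested, and 0 were called in either direction. Fitted levels were higher for 26 and lower for 50, with a median log2 fold change of -0.05. Of the 20 interferon genes in the list of ligands, only Ifng was tested. Of the other 19, 18 had 0 reads in all 8 libraries and Ifna16 had at most 1 read in a library, so transcripts of these interferons were not detectable above the floor of 3 reads. Ifng (chromosome 10, 118441046 to 118445892) stood at 2.37, 3.30, 3.17 and 3.13 CPM with osteopontin and 1.56, 2.34, 1.34 and 0.0767 CPM without. The groups did not overlap, as for 1.89% of all genes in that direction, but osteopontin library 1 and null library 2 were nearly equal. With osteopontin over null, the log2 fold change of 1.17 had an interval of -0.33 to 2.67 (edgeR adjusted p = 0.9999). Null library B held 5 reads, and without it the value was 0.77. It was 0.54 with digit-named and 2.14 with letter-named libraries only, and 1.89 with voom (adjusted p = 0.906).

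Receptor chains and kinases were well expressed, apart from Ifnlr1, the chain specific to interferon-lambda, at 1.34 ± 1.02 CPM with osteopontin and 0.703 ± 0.269 CPM without. Of the 10 genes, 3 were fitted higher and 7 lower. Ifnar1 stood at 182.8 ± 14.5 and 173.1 ± 7.85 CPM (log2 fold change 0.08) and Ifnar2 at 96.0 ± 11.1 and 99.6 ± 3.45 CPM (-0.05). Ifngr1 stood at 405.0 ± 45.2 and 417.6 ± 25.5 CPM (-0.04), Ifngr2 at 21.9 ± 5.54 and 24.9 ± 2.49 CPM (-0.19), and Jak1, the highest of the list per length, at 1129 ± 17.9 and 1110 ± 56.1 CPM (0.02).

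Of 16 tested genes of nucleic acid sensing and signalling, 8 were fitted higher and 8 lower, with a median log2 fold change of 0.00. Trim25, the ubiquitin ligase that activates RIG-I, had the smallest p, at 106.9 ± 10.0 and 95.1 ± 12.6 CPM, and its log2 fold change of 0.17 had an interval of -0.04 to 0.38. Irf3, the factor that starts interferon transcription, was the highest per length and stood at 152.2 ± 12.2 and 152.2 ± 5.08 CPM. Of 11 negative regulators, 2 were fitted higher and 9 lower. Ptpn6, the phosphatase SHP-1, stood at 192.7 ± 28.7 and 237.1 ± 23.8 CPM (-0.30, 95% interval -0.52 to -0.08, edgeR adjusted p = 0.9999). Samhd1, which breaks down nucleotides needed by retroviruses, was the highest of that list per length, at 369.7 ± 28.9 and 384.9 ± 21.4 CPM (-0.06). Of 38 further induced genes, 12 were fitted higher and 26 lower, with a median log2 fold change of -0.07. Ifi203, a DNA-binding protein of the interferon-inducible HIN family, stood at 280.7 ± 13.9 and 250.8 ± 27.6 CPM (0.16, 95% interval 0.00 to 0.32). Ly6e, which blocks fusion of some viruses, had the highest level of any gene in these lists, at 1630 TPM with osteopontin and 1723 TPM without.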

How the data were processed

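RNA sequencing had been done on 4 osteopontin and 4 null libraries. Per the labels' protocols, a column kit for small samples gave the RNA, and the Illumina libraries were stranded. Per the submitters' processing notes the tool was Salmon. Its version, settings and transcript release, like the genome build, are not stated there. The authors deposited estimated counts, TPM values and effective lengths for 133618 transcripts per library, per the file headers. Replicates were not pooled, and no pair of libraries agreed within sampling noise.

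Estimated counts were summed per gene and rounded. Members were the genes with the 33 given symbols, and the members and lists were chosen with earlier results of these data known. Groups were compared in edgeR 4.0.16 (R 4.3.3) by its quasi-likelihood F test (robust, two-sided, group only), on genes kept by filterByExpr (minimum count 10) and on TMM-scaled totals, with Benjamini-Hochberg adjustment over all 18631 tested genes and a threshold of 0.05. Standard errors are the fold change over the square root of F. Levels are CPM on TMM-scaled totals, except TPM, which was the sum of the deposited values and entered no test. The test was checked on simulated data.

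Values in every library are given for members among the 8 with the smallest p, the 6 with the highest mean TPM, or the 6 with the largest ratio of highest to lowest library at a mean of at least 5 CPM. From each pathway list the gene with the smallest p and the one with the highest TPM are named, and the interferon receptor chains and Ifng always. The result of 1 gene named by this rule is not reported here. Ifih1, Usp18, Siglech and single values of other members were named after their values were seen. Promoter windows are from RefSeq (GRCm38.p6), and spans and 31-base words from GENCODE M21 (GRCm38).

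Same-named libraries of the 2 groups deviated together over 10616 genes (r = 0.133, 0.204, 0.184 and 0.216 for 1, 2, A and B, across genes). Between differently named libraries of the 2 groups r ran from -0.196 to 0.083. The labels state no pairing, so the main test was unpaired, and pairing by name (the replicate block) was an alternative. Alternatives were the replicate block, digit or letter naming as a covariate, DESeq2 1.42.0, voom of limma 3.58.1, other size factors, no filter, an effective-length offset, coding transcripts only, and subsets of libraries. The subset without both B libraries was chosen after seeing the data.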

Additional observations from a re-analysis of the deposited data

Results flagged for a closer look

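The highest and lowest library of each group of 4 was compared with the others by Dixon's ratio for all 33 genes, 66 groups in all. Chance flags about 1 group in 20, and 2 groups were flagged. Ifit3 stood at 15.96 CPM in osteopontin library A, against 7.90 to 8.33 CPM in the other osteopontin libraries, so that library stood far above the rest. Oasl1 stood at 6.914 CPM in null library B, far below the 10.9 to 11.7 CPM of the other null libraries. Both genes had intervals that included 0 in the comparison of osteopontin with null.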

How the results depend on the processing

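Over 20 alternatives, 0 members and 0 genes of the pathway lists were called in any of them, while 73 of 659 member fold changes took the opposite sign, in 22 of the 33 genes. Calls over all genes (0 higher and 0 lower) became 21 and 59 with DESeq2, 3 and 1 without the filter, 1 and 15 with digit-named libraries only, 0 and 1 with letter-named libraries only, and 1 and 48 without both B libraries. Leaving out 1 library gave 0 to 2 higher and 0 to 35 lower calls, the most without osteopontin library B. With the replicate block the members' median was -0.07 (-0.05 without it), with 0 calls among members and over all genes, so pairing changed no call. That median was 0.0213 without null libraries 1 and A, -0.10 with digit-named libraries only, and -0.10 to -0.02 when 1 library was left out. Members lower at an unadjusted p under 0.05 numbered 3, and 0 to 4 in the alternatives, with 1 under coding transcripts only, digit-named libraries only, or without osteopontin library 1, osteopontin library 2 or null library B, and 0 with letter-named libraries only.

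Among the 15 members with values given in every library, log2 fold changes of the opposite sign were as follows, and the cause was not tested. With effective lengths as an offset they were 0.151 for Stat2, -0.0247 for Ddx58, -0.0578 for Rtp4 and 0.0922 for Oasl1. With coding transcripts only they were 0.0580 for Oasl2 and 0.0079 for Oas3. With the replicate block and with voom they were -0.0295 and -0.0385 for Rtp4 and -0.178 and -0.103 for Mx1. Without null libraries 1 and A they were 0.279 for Bst2, 0.0213 for Stat2, -0.105 for Rtp4 and 0.0893 for Oasl1. With digit-named libraries only they were 0.0503 for Stat2, -0.0821 for Rtp4, -0.103 for Mx1 and -0.0847 for Ifit3, and with letter-named libraries only 0.31 for Oasl1. Without both B libraries they were 0.0317 for Stat2 and 0.194 for Oas3. Leaving out 1 library gave -0.33 to 0.11 for Bst2, -0.0892 to 0.0322 for Stat2, -0.26 to 0.13 for Rtp4, -0.31 to 0.0037 for Oasl1, -0.42 to 0.36 for Mx1, -0.0760 to 0.34 for Ifit3 and -0.41 to 0.11 for Oas3. Irf1 was lower under all 20 alternatives, between -0.20 and -0.15 when 1 library was left out. Usp18, Oas1g and Ifit3b had libraries at or under 3 reads.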
